A study of Capitella teleta with 10 samples.

Results

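Chromatin accessibility at the stage 8 larva of the annelid Capitella teleta was compared with that at the gastrula, using 4 of the 10 ATAC-seq libraries of a developmental time course and all 46409 consensus peaks of its table. The libraries were st8 larva replicates 1 and 2, each made from about 50 larvae, and gastrula replicates 1 and 2, each made from about 200 embryos, in both cases about 50000 cells per library from whole animals with no treatment given in the labels. The other libraries, 2 each from the 64-cell embryo, the stage 4tt larva and the stage 5 larva, entered the fit and show where between both ends a change fell. Stage 8 and stage 5 libraries were sequenced at Novogene, and stage 4tt, gastrula and 64-cell libraries in Oxford, so the step between stage 4tt and stage 5 is also the step between sequencing sites. The rearing text in the labels names another annelid, Owenia fusiformis, while the organism label, the titles and the scaffold names all give Capitella teleta. Peaks carry scaffold positions and no gene names in the files used here, so genes are not named and the stage was not checked against marker genes.

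ATAC-seq uses a transposase that inserts adaptors where DNA is not wrapped in nucleosomes, so peaks of inserts mark accessible promoters, enhancers and other regulatory elements. The gastrula is the embryo in which germ layers are laid down, and the late larva is a segmented animal with differentiated nerve, muscle and ciliated cells. In whole animals, a peak that is open in more cells and a peak that is more open in each cell give the same signal and cannot be told apart.

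The depth differed between the stages. Reads within consensus peaks, recovered from the deposited values, numbered 56898903 and 37476266 in the stage 8 libraries, against 22916035 and 24726229 in the gastrula libraries, and the median peak held 678 and 459 reads at stage 8, against 200 and 207 at the gastrula. Replicates correlated with a Pearson r of 0.993 at stage 8 and 0.976 at the gastrula over log2 values of peaks, which are not independent replicates. Their reads differed beyond counting error: the chi-square divided by its degrees of freedom was 3.98 at stage 8 and 5.22 at the gastrula. The 10 strongest peaks of the table held 3.90% and 4.05% of the signal at stage 8, against 10.6% and 11.4% at the gastrula. The study describes the libraries of a stage as biological replicates. The p-values and SEs rest on the spread between replicates in all 5 stages, shared in part across peaks, and not on the compared stages alone.

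More of the table changed between these 2 stages than between any other pair of the 5 stages. Of 46409 peaks, 33358 (71.9%) passed an adjusted p of 0.05 (limma on log2(value + 1), Benjamini-Hochberg over all peaks). Of these, 20649 (44.5% of the table) were higher at stage 8 and are called opened, and 12709 (27.4%) were lower and are called closed. Changes of at least 2-fold were called in 39.1% of the table, in 13081 opened peaks (28.2%) and 5068 closed peaks (10.9%). The median absolute log2 change over all peaks was 0.82. The pair with the next most calls was stage 8 against stage 4tt, with 32365 peaks (69.7%), and the fewest were called for stage 8 against stage 5, with 15187 peaks (32.7%). Among pairs sequenced in Oxford, the gastrula against the 64-cell embryo gave 29458 peaks (63.5%), with 24.8% of the table changed at least 2-fold. Stage 4tt gave 26848 peaks (57.9%) against the 64-cell embryo and 16931 peaks (36.5%) against the gastrula. Pairs across the sequencing sites gave between 52.2% and 71.9%. The part of the site in these counts was not tested.

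Which direction prevailed depended on how libraries were scaled. With the deposited values the median peak was higher at stage 8 by 0.25 on the log2 scale, and 61.9% of the changed peaks had opened. Trimmed-mean (TMM) scaling sets that median to 0.00 and gave 16696 opened and 17355 closed peaks, so that 49.0% of the changed peaks had opened. Quantile normalisation gave 16533 opened and 15655 closed peaks (51.4% opened). TMM scaling applies a single factor to each library and so lowers nearly all changes by a like amount. All 16696 peaks opened under TMM scaling were among the 20649, and all 12709 closed peaks were called closed again, while 11 peaks changed from opened to closed. This nesting follows from the shift and is no separate check of the calls.

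The values behind the calls show how far both sets moved. Opened peaks had a median value of 396 and 412 in the stage 8 libraries, against 170 and 157 in the gastrula libraries. Closed peaks had a median value of 372 and 393 in the stage 8 libraries, against 720 and 722 in the gastrula libraries. At stage 8 the opened and the closed peaks were thus at similar levels, and at the gastrula they lay far apart. The median change was 1.25 on the log2 scale in opened peaks and -0.84 in closed peaks. In 20646 of the opened and 12705 of the closed peaks both stage 8 libraries lay on one side of both gastrula libraries, as they also did in 23864 peaks upwards and 15995 downwards among all peaks, called or not.

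The 10 largest rises, among called peaks at or above the median strength of the table whose libraries did not overlap, were between 3.22 and 3.59 on the log2 scale. The largest was CTEL_peak_38602, 1015 bp wide on scaffold 692 from 129559 to 130573, 5129 bp from its nearest neighbour. It had values of 1587 and 1498 at stage 8, against 163 and 98.8 at the gastrula, which is a log2 change of 3.59 ± 0.18 (SE, n = 2 libraries each, limma adjusted p = 7.28e-10). Its stage 4tt values were 257 and 252, those of stage 5 were 361 and 357, and the step after stage 5, of 2.10 on the log2 scale, was the largest. It was called as a peak in both lists of stage 8 and both of stage 5, and in no list of the earlier stages. CTEL_peak_23175 (scaffold 338, 13145 to 13813) behaved alike, with values of 3100 and 2745 at stage 8, against 323 and 261 at the gastrula. At stage 5 it was still at 689 and 652 and was called in neither list. CTEL_peak_21169 (scaffold 309, 52460 to 53739) had values of 2123 and 2162 at stage 8, against 249 and 180 at the gastrula. Its values of 616 and 561 at stage 4tt show an early rise, of 1.47 on the log2 scale, beside one of 1.41 after stage 5.

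CTEL_peak_20952 and CTEL_peak_20950 lie close together on scaffold 305, from 71633 to 72968 and from 68274 to 69220. The first had values of 1316 and 1297 at stage 8, against 133 and 133 at the gastrula, and the other had 840 and 813 at stage 8, against 94.2 and 75.7 at the gastrula. CTEL_peak_23104, the only peak of its scaffold (33669, 5 to 1177), had values of 2028 and 1910 at stage 8, against 283 and 157 at the gastrula. This peak was not new at the larva: its values in the 64-cell embryo were 1055 and 1133, and it was called in both lists of every stage. The other 9 of the 10 were called in both stage 8 lists and in no 64-cell list, and 1 of them was called in 1 gastrula list. For 6 of the 10 the largest step was that from stage 5 to stage 8, for 3 it was that from gastrula to stage 4tt, and for 1 that from stage 4tt to stage 5. All 10 were also called opened from the steps within a sequencing site alone, with an adjusted p of at most 0.00137 (limma). Those steps hold the same gastrula and stage 8 libraries that chose the peaks, so they are no independent support. Of all opened peaks, 47% were called opened in this way.

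The 10 largest falls by the same rule were between -3.63 and -4.23. The largest was CTEL_peak_6624, the only peak of scaffold 14244 (780 to 1856), with values of 38.9 and 31.3 at stage 8, against 814 and 556 at the gastrula, a log2 change of -4.23 ± 0.18 (SE, n = 2 libraries each, limma adjusted p = 1.56e-10). It was at 346 and 400 in the stage 5 libraries, was called in every list up to stage 5, and was called in neither list of stage 8. CTEL_peak_20283 (scaffold 298, 242964 to 243806) closed early: it had values of 168 and 183 at stage 8, against 3013 and 3264 at the gastrula, and was already at 577 and 526 at stage 4tt. CTEL_peak_20805 (scaffold 302, 103214 to 103642) followed it, with 81.3 and 74.1 at stage 8, against 1282 and 1301 at the gastrula and 300.5 and 416 at stage 4tt. Both were also high in the 64-cell embryo, at 3128 and 3381 for CTEL_peak_20283 and at 1416 and 1427 for CTEL_peak_20805.

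Of the 10 largest falls, 5 were peaks of 429 bp or less. CTEL_peak_22034, 192 bp wide on scaffold 32 (404038 to 404229), had values of 62.7 and 56.8 at stage 8, against 918 and 771 at the gastrula, and it was at only 188 and 173 in the 64-cell embryo. CTEL_peak_4463, 176 bp wide on scaffold 1253 (3619 to 3794), had values of 48.7 and 52.8 at stage 8, against 818 and 503 at the gastrula. The strongest of the 10 was CTEL_peak_7912 (scaffold 154, 297856 to 299167), with values of 474 and 527 at stage 8, against 6012 and 6405 at the gastrula. Its 3 steps of -1.47, -1.55 and -0.61 run in the same direction. In CTEL_peak_30544 (scaffold 477, 389 to 1854) the stage 8 values of 68.9 and 59.9, against 742 and 995 at the gastrula, did not mark a steady fall. Its stage 4tt libraries were at 84.6 and 13.4 and its stage 5 libraries at 213 and 175, and its SE of 0.79 was the largest of the 10. All 10 were called in both gastrula lists, 2 were called in any stage 8 list, and all 10 were called closed from the within-site steps (limma adjusted p of at most 0.0270). Those steps again hold the libraries that chose the peaks, and 55% of all closed peaks were called closed in this way. In CTEL_peak_30544 they summed to -6.19, beyond its total change of -3.72. The median width was 505 bp for the 10 falls and 981 bp for the 10 rises.

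**Figure D1:**
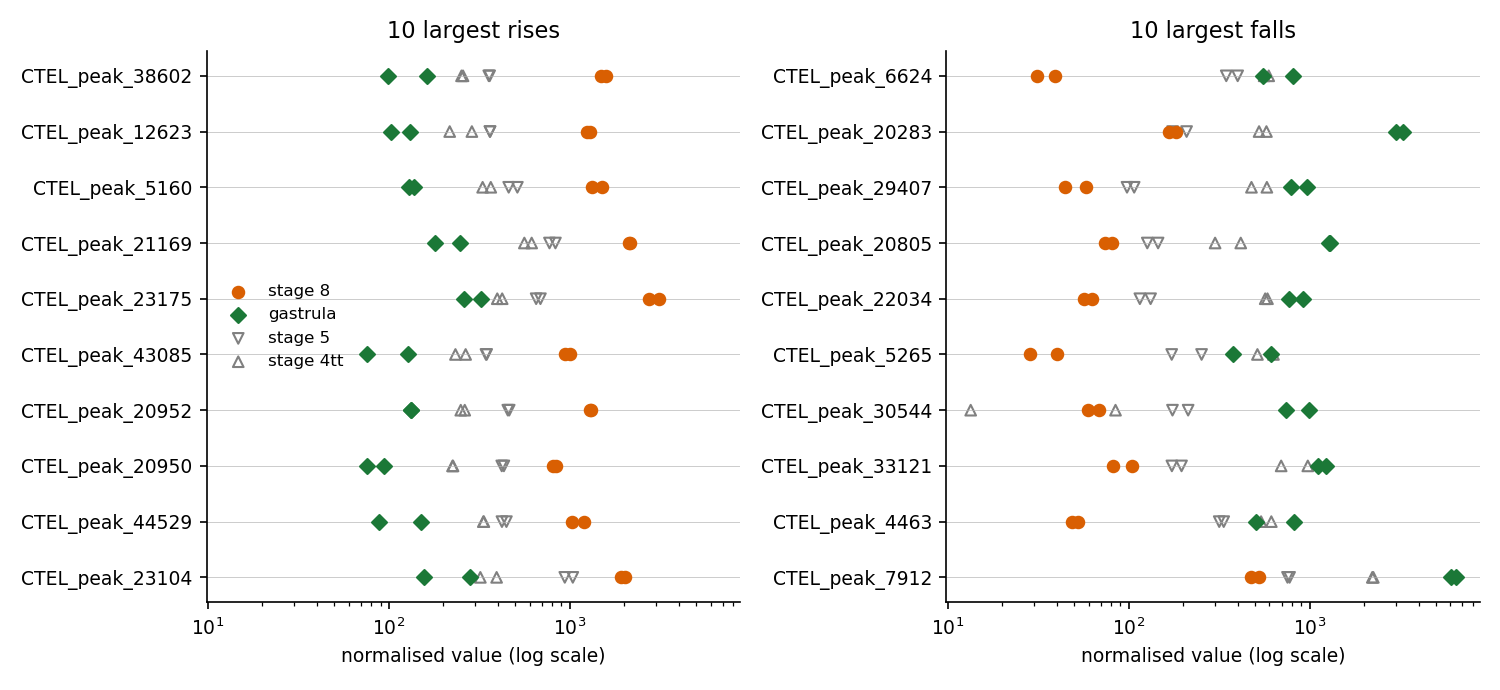
Normalised value (x axis, log scale) of the 10 consensus peaks with the largest rise (left) and the 10 with the largest fall (right), 1 row per peak and 2 points per stage, 1 for each library: filled circles for stage 8, filled diamonds for the gastrula, open triangles pointing down for stage 5 and up for stage 4tt. Stage 8 lies between 813 and 3100 in the rises and between 28.5 and 527 in the falls. It does not overlap the gastrula in any row, because only peaks without overlap could be chosen.

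Below the top of the strength range peaks opened more often than they closed, and among the strongest peaks the order was turned. Peaks were ranked by their mean value over all 10 libraries and cut into 10 equal groups. In group 3, with mean values from 114 to 176, 62.9% of peaks had opened and 17.0% had closed, and the median change was 0.95 on the log2 scale. The share of opened peaks fell with each stronger group, to 44.9% in group 7 and 29.2% in group 10. The share of closed peaks was higher in each stronger group from group 3 on, at 32.5% in group 7 and 46.7% in group 10. Groups 8 to 10 held more closed than opened peaks. The weakest group, with a median mean value of 8.50, had few calls in either direction, with 16.5% opened and 12.0% closed. Calls of at least 2-fold leaned more to weak peaks, with 47.8% opened in group 3, against 6.53% in group 10.

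This trend with strength held in its sign under other scalings and was smaller under one of them. The median change of the weaker 5 groups exceeded that of the stronger 5 groups by 0.70 with the deposited values and by 0.24 after quantile normalisation. Under TMM scaling 16.8% of group 10 had opened and 66.8% had closed, and 55.0% of group 3 had opened and 21.5% had closed. After quantile normalisation the shares were 35.4% opened and 40.9% closed in group 10, and 40.6% opened and 28.6% closed in group 3. Of the 3 steps, that from stage 4tt to stage 5, which crosses the sequencing sites, varied most with strength among groups 2 to 10. Its median was 0.78 in group 2, 0.39 in group 5 and -0.08 in group 10. The step from gastrula to stage 4tt had medians between 0.07 and 0.17 in groups 3 to 10, and that from stage 5 to stage 8 between 0.13 and -0.14. The sum of these within-site steps also fell with strength from group 3 on, with medians of 0.33 in group 3, 0.24 in group 5, 0.05 in group 7 and -0.06 in group 10. By that sum 28.2% of group 3 had opened and 12.0% had closed, and 24.7% of group 10 had opened and 36.0% had closed. Groups 1 and 2 went against it, with medians of -0.83 and -0.01, so that the weaker 5 groups together exceeded the stronger 5 by only 0.065. Part of the trend from group 3 on was thus present within sequencing sites, and for the part in the middle step stage and site cannot be told apart.

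**Figure D2:**
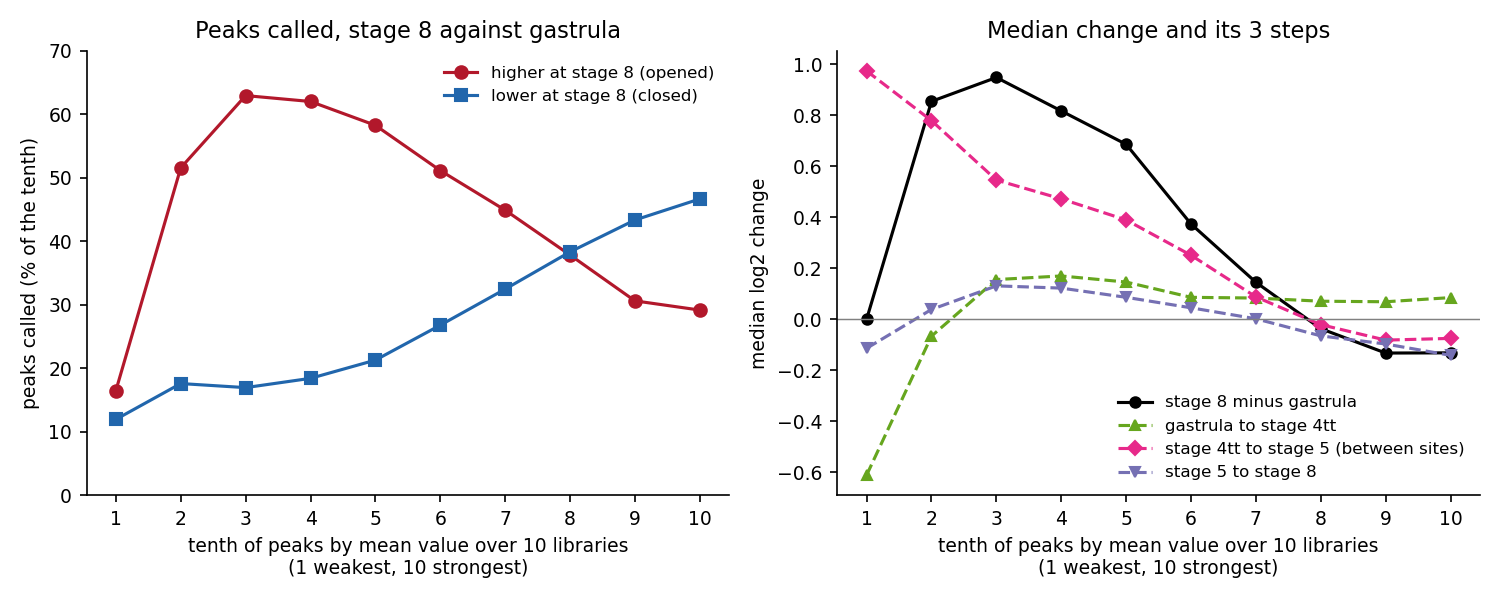
Left, share of peaks called opened (circles) or closed (squares) at stage 8 against the gastrula (y axis, % of the group) in 10 equal groups of peaks by mean value (x axis, 1 weakest). Right, median log2 change of stage 8 minus gastrula (solid line) and of its 3 steps (dashed lines) in the same groups. The line of the step from stage 4tt to stage 5 slopes most among groups 2 to 10, with 0.78 in group 2 and -0.08 in group 10.

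The very strongest peaks went down together. The 5 strongest peaks of the table were CTEL_peak_13150 (scaffold 2067), CTEL_peak_15319 (scaffold 2314), CTEL_peak_16955 and CTEL_peak_16954 (both scaffold 2500) and CTEL_peak_6522 (scaffold 14164). CTEL_peak_13150 had values of 305800 and 327520 at stage 8, against 914960 and 989550 at the gastrula. Its 64-cell values were 2110000 and 1651800, its stage 4tt values 618330 and 633300, and its stage 5 values 148250 and 166580. The other 4 took the same course, with total changes from -1.38 to -1.68 on the log2 scale, and in all 5 the step from stage 4tt to stage 5 was the largest fall and the step from stage 5 to stage 8 was a rise of 0.997 to 1.06. None of the 5 was called from the within-site steps, which summed to between 0.33 and 0.48 (limma adjusted p between 0.0636 and 0.224), and under quantile normalisation their change is 0 because they hold the same ranks in every library. Among the 100 strongest peaks 31 had opened and 50 had closed, with a median change of -0.13, while 12% had opened and 70% had closed under TMM scaling and 36% and 38% after quantile normalisation, with a median of 0.

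With the deposited values, width by itself separated opened from closed peaks little. In 5 equal groups by width, opened peaks made up 45.2% of the narrowest group (101 to 427 bp), 41.9% of the middle group and 48.8% of the widest (1347 to 5828 bp). Closed peaks made up 20.0% of the narrowest and 30.2% of the widest group. After quantile normalisation 29.7% of the narrowest and 48.6% of the widest group had opened, and 30.3% and 29.5% had closed. Wide peaks are also strong, with a median mean value of 119 in the narrowest and 1063 in the widest group, so width was read again within 3 equal classes of strength. In the middle class the share of opened peaks was 30.0% in the narrowest width group and 75.2% in the widest. That of closed peaks was 43.8% and 11.5%. By the within-site sum 22.45% and 35.1% of these peaks had opened, and 25.9% and 16.4% had closed. Their step between sequencing sites had medians of -0.19 in the narrowest and 0.81 in the widest group. Their within-site sum had medians of -0.002 and 0.29. Most of this contrast thus lay in the step in which stage and site cannot be told apart. In the strong class, whose narrowest width group held only 110 peaks, 20.0% of these had opened and 57.3% had closed, and 45.1% of the widest had opened and 34.3% had closed. In the weak class the order turned, with 49.3% opened in the narrowest group and 35.6% in the widest. A consensus peak spans the peaks called over the libraries, so its width is not independent of what was called at either stage.

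**Figure D3:**
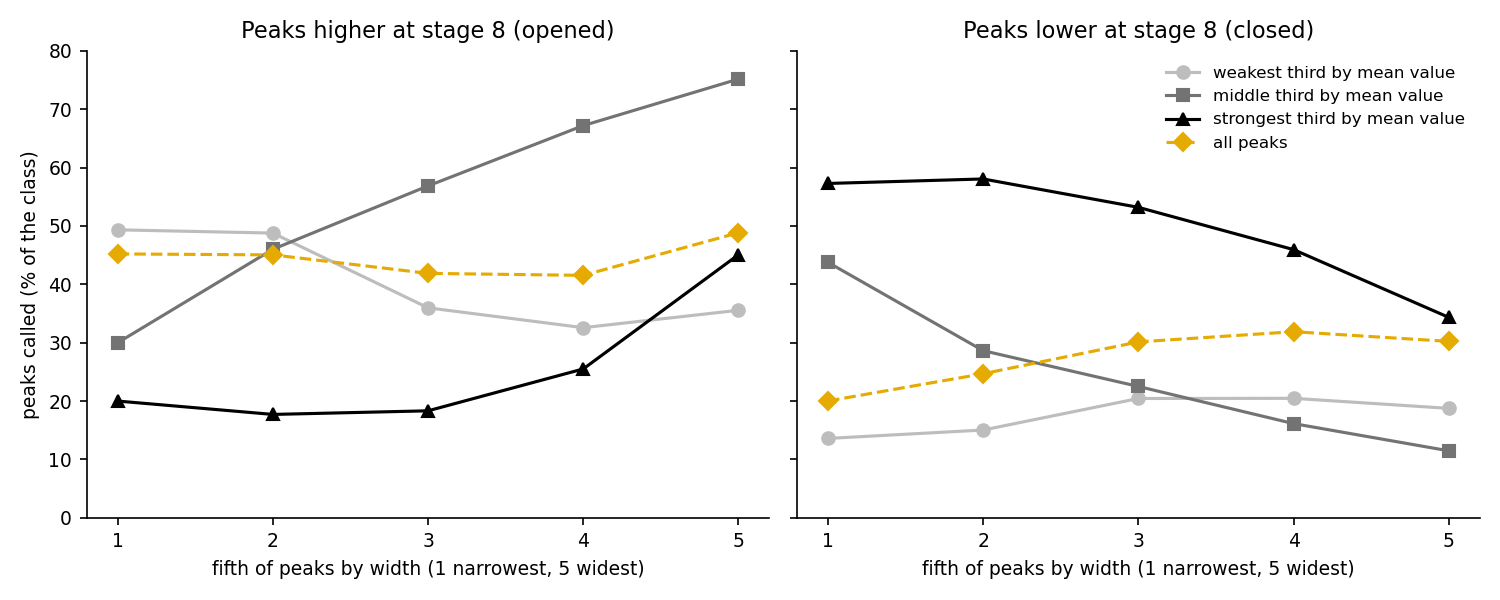
Share of peaks called opened (left) and closed (right) at stage 8 against the gastrula (y axis, % of the class) in 5 equal groups by width (x axis), for all peaks (dashed) and within 3 equal classes of mean value (solid). In the middle class the opened share is 30.0% among the narrowest and 75.2% among the widest peaks.

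Strength and width together amount to signal per length. In 5 equal groups by mean value per kb, opened peaks made up 31.9% of the lowest group, 75.8% of the next (232 to 384 per kb), 57.9% of the middle one and 21.9% of the highest (above 841 per kb). Closed peaks made up 10.8% of the second and 52.0% of the highest group. After quantile normalisation the opened shares of these 5 groups were 23.1%, 60.8%, 42.5%, 28.4% and 23.2%. Peaks of the second group had thus opened most often under both scalings, and 51.7% of the highest group had closed after quantile normalisation. By the within-site sum 36.35% of the second and 19.8% of the highest group had opened, and 9.54% and 33.6% had closed. The step between sequencing sites had medians of 0.70 in the second and -0.17 in the highest group. The within-site sum had medians of 0.43 and -0.09. Opened peaks had a median of 391 per kb and closed peaks of 698 per kb.

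Among the 5 widest peaks of the table the direction differed. CTEL_peak_25094 (5759 bp, scaffold 37, 714967 to 720725) had values of 2831 and 2951 at stage 8, against 811 and 871 at the gastrula, a log2 change of 1.78 ± 0.07 (SE, n = 2 libraries each, limma adjusted p = 1.22e-10). It was called in both lists of stage 8 and of stage 5, and in none of the gastrula or the 64-cell embryo. CTEL_peak_35722 (5458 bp, scaffold 60, 382430 to 387887) had values of 5188 and 5170 at stage 8, against 11602 and 12011 at the gastrula, a change of -1.19 ± 0.05 (SE, n = 2 libraries each, limma adjusted p = 9.57e-11), and was called in every list. Of the other 3, CTEL_peak_11507 rose by 0.62, and CTEL_peak_20690 and CTEL_peak_6693 fell by 0.48 and 0.39 on the log2 scale.

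The share of opened peaks varied little with spacing among peaks with a neighbour on the scaffold. Among these, closing by at least 2-fold was more frequent at close spacing in the middle and strong classes, but not in the weak class. Opened peaks made up 47.1% of the 15123 peaks with a neighbour nearer than 1 kb, 47.9% of those at 1 to 2 kb, 45.0% at 2 to 5 kb, 41.9% at 5 to 10 kb and 46.9% at 10 kb or more. Closed peaks made up 29.3% of the closest and 21.2% of the most isolated class. Peaks closed by at least 2-fold made up 13.4% of those with a neighbour under 1 kb, 7.17% at 5 to 10 kb and 7.98% at 10 kb or more. Under 1 kb and at 5 to 10 kb, the shares were 9.98% and 10.3% in the weak class and 12.6% and 5.92% in the middle class. In the strong class they were 16.7% and 5.07%. Counting changes of any size, 44.7% and 43.7% of these strong peaks had closed, so the shares hardly differed. By the within-site sum, also at any size, 37.1% and 17.7% of them had closed. Peaks that were alone on their scaffold stood apart, with 23.1% opened, 24.2% closed and 18.4% closed by at least 2-fold among 3369 peaks. These were weak, with a median mean value of 46.5, against 380 for peaks with a close neighbour.

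Neighbours nevertheless changed alike. Over 8479 pairs of consecutive peaks less than 1 kb apart, the log2 changes of both peaks correlated with a Pearson r of 0.51. The coefficient was 0.37 at 2 to 5 kb (13127 pairs) and 0.17 at 20 kb or more (965 pairs). These values are given as a description, since neighbours share libraries and base composition. Over the within-site steps the coefficients were 0.47, 0.28 and 0.12 at the same distances, so the likeness of near neighbours was also present without the step between sites. Of the neighbours of an opened peak within 1 kb, 66.8% had opened too, where 46.6% of peaks in such pairs had. Of the neighbours of a closed peak, 54.6% had closed, where 30.0% had. In 13.6% of these pairs one peak had opened and the other had closed.

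**Figure D4:**
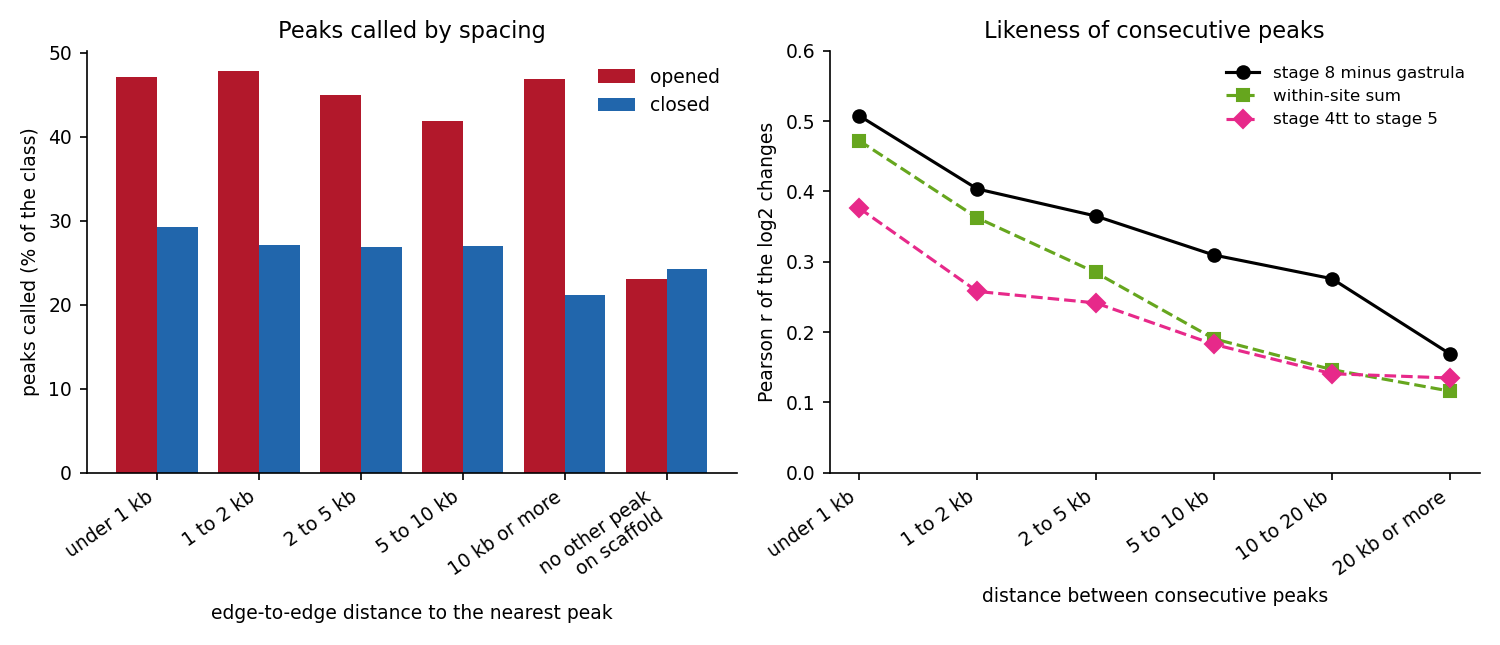
Left, share of peaks called opened or closed at stage 8 against the gastrula (y axis, % of the class) by distance to the nearest peak on the scaffold (x axis). Right, Pearson r between the log2 changes of consecutive peaks (y axis) by the distance between them (x axis), for stage 8 minus gastrula, for the within-site sum and for the step from stage 4tt to stage 5; the first is 0.51 under 1 kb and 0.17 at 20 kb or more.

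Changed peaks formed runs along scaffolds. Of the opened peaks, 36.0% lay in runs of at least 5 consecutive opened peaks, and 10.7% in the 174 runs of at least 10. Of the closed peaks 17.9% lay in runs of at least 5, and 3.97% in the 41 runs of at least 10. Opened peaks made up 44.5% of all peaks and closed peaks 27.4%, so these run shares do not compare how strongly each set clusters. The longest opened run held 25 peaks over 116 kb of scaffold 588 (6614 to 122867). The values of its peaks summed to 12080 and 13044 at stage 8, against 4635 and 3982 at the gastrula, with changes of single peaks between 0.34 and 2.57 on the log2 scale. The stage 8 libraries lay above the gastrula libraries in all 25 peaks, as they did in 20646 of the 20649 opened peaks. Of the 25 peaks, 19 were called in both stage 8 lists, where 90.8% of opened and 79.3% of all consensus peaks were. In any gastrula list 4 were called. From the within-site steps 16 peaks of the run were called opened, where 47% of all opened peaks were. Its smallest changes, in CTEL_peak_35076 and CTEL_peak_35093, were 0.34 and 0.48 with the deposited values and 0.05 and 0.19 under TMM scaling. In the remaining libraries the sums were 6230 and 6050 (64-cell), 6043 and 5891 (stage 4tt), and 10260 and 9739 (stage 5).

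The longest closed run held 24 peaks over 59.2 kb of scaffold 167 (77694 to 136935), with a median distance to the nearest peak of 581 bp. Its values summed to 23981 and 23120 at stage 8, against 54231 and 56343 at the gastrula, with single changes between -0.36 and -2.85. The stage 4tt sums were 47134 and 48084 and the stage 5 sums 43515 and 41003, so most of the loss came after stage 5. All 24 peaks were called closed from the within-site steps too, where 55% of all closed peaks were. They include the 3560 bp CTEL_peak_9194, which kept values of 6578 and 6249 at stage 8, against 10627 and 11207 at the gastrula, and the 306 bp CTEL_peak_9186, which had 165 and 177 at stage 8, against 1252 and 1148 at the gastrula. A second closed run of 23 peaks lay on scaffold 4 (774346 to 830113), with a median change of -1.64. Over the 662 scaffolds with at least 20 peaks, the share of opened peaks ran from 4.55% to 96.2% (median 46.4%), and 499 scaffolds held more opened than closed peaks and 150 the reverse. This tally rests on the deposited values and was not made under other scalings. Under TMM scaling 16696 peaks of the table had opened and 17355 had closed.

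The change was spread over all 3 steps, unequally for opened and closed peaks. In opened peaks the first step, up to stage 4tt, had a median of 0.30, the middle one, up to stage 5, had 0.67, and the last had 0.25. The middle step was the largest in 58.1% of opened peaks, the first in 23.7% and the last in 18.2%. A median of 24.8% of the rise was reached by stage 4tt and 80.3% by stage 5. In closed peaks the median steps were -0.18, -0.30 and -0.36, and the largest step was the first in 24.4%, the middle one in 37.5% and the last in 38.1%. A median of 20.0% of the fall was reached by stage 4tt and 57.5% by stage 5. With the deposited values more of the closing than of the opening was still to come at stage 5, and no test was made of that difference. Which step was largest in closed peaks depended on the scaling: the median middle step was -0.49 under TMM scaling and -0.40 after quantile normalisation, and the last step -0.38 and -0.37. In opened peaks the middle step had the largest median under both, at 0.48 and 0.37. Across all peaks, 21.7% rose and 14.7% fell in the first step, 39.8% and 20.0% in the middle one (59.8% in all), and 15.3% and 17.4% in the last. The first step was called in 36.5% of all peaks in either direction. The excess of rises in the middle step, 18490 against 9276 falls, was not found under TMM scaling (14165 and 13936) or after quantile normalisation (12063 and 11980).

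The opened peaks lay below their 64-cell level at the gastrula. Their median value was 288 and 281 in the 64-cell libraries, 170 and 157 in those of the gastrula, 209 and 211 in stage 4tt, 338 and 331 in stage 5, and 396 and 412 in stage 8 libraries. The closed peaks were highest at the gastrula, with a median value of 558 and 596 in the 64-cell libraries, 720 and 722 in those of the gastrula, 644 and 634 in stage 4tt, 487 and 505 in stage 5, and 372 and 393 in stage 8 libraries. Of the 5 stages, the gastrula thus had the lowest median in opened and the highest in closed peaks. Since the peaks were chosen by their gastrula and stage 8 values, the position of these 2 stages follows in part from the choice.

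**Figure D5:**
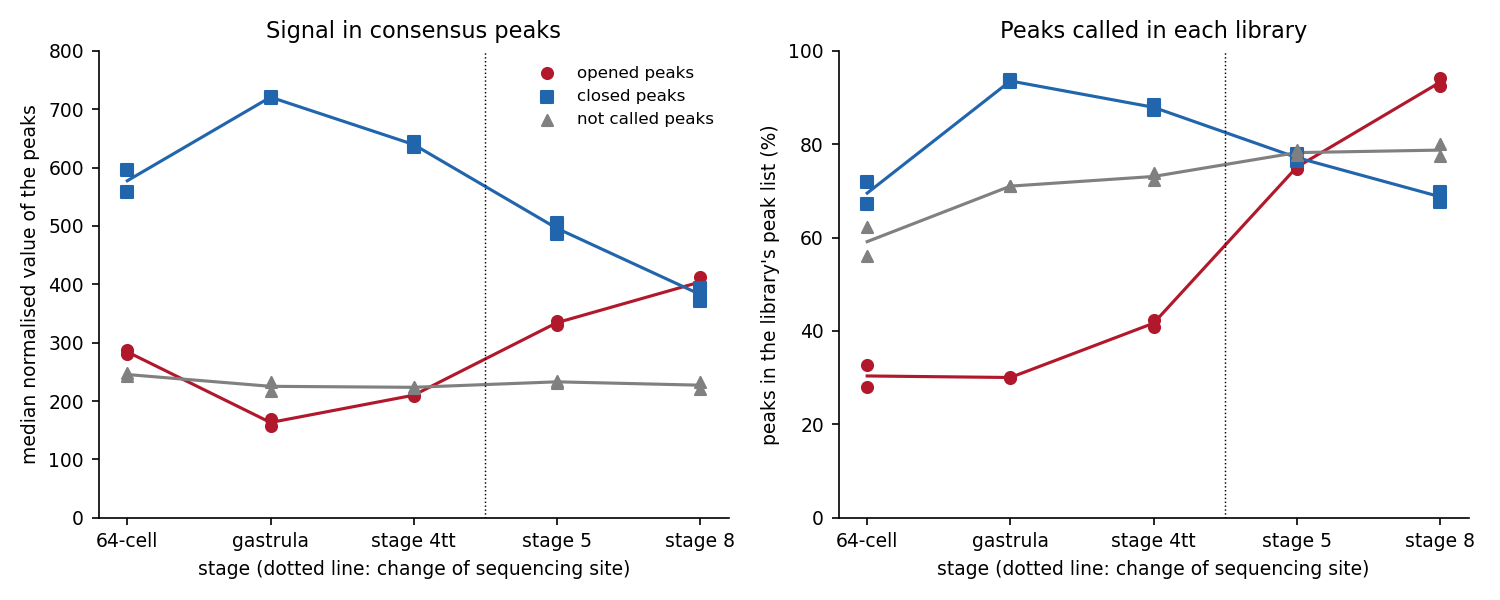
Left, median normalised value (y axis) of opened, closed and not called peaks in each of the 10 libraries by stage (x axis), with lines through the stage means; right, share of the same peaks (y axis, %) that overlap a peak of the library's own list. Opened peaks are at 396 and 412 at stage 8, against 170 and 157 at the gastrula, and the dotted line marks the change of sequencing site.

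Calls at single steps count where the threshold was passed, and a step without a call may still hold a change. Of the opened peaks, 50.7% were called opened at 1 step only, 24.5% at 2 steps and 6.77% at all 3, each with no opposite call, and 10.2% were called closed at some step. The middle step alone accounted for 36.5% of the opened peaks, the first for 8.17% and the last for 6.03%. Of the closed peaks, 43.2% were called closed at 1 step only, 19.5% at the middle step, 13.5% at the last and 10.2% at the first, and 17.6% were called opened at some step.

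To read the change without the step between sites, the first and the last step were added. By this sum 43.8% of the table had changed: 11020 peaks (23.7% of all peaks) had opened and 9325 (20.1%) had closed (limma, adjusted p under 0.05). Under TMM scaling the prevailing direction turned, with 9472 opened and 11115 closed peaks, and quantile normalisation gave 10035 and 9963. Among the opened peaks of stage 8 against the gastrula, 47.0% were called opened by the sum and 2.44% closed. Among the closed peaks, 55.0% were called closed and 1.19% opened. For the peaks with changes of at least 2-fold, the shares were 55.3% of opened and 75.4% of closed peaks. Peaks whose largest step was the middle one were called in the same direction by the sum in 22.9% of opened and 19.3% of closed cases. The sum contains the same gastrula and stage 8 libraries, so it is not independent of the choice of the peaks. How much of the middle step is development and how much is the sequencing site cannot be told apart.

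Choosing peaks in the libraries of one replicate number and measuring them in those of the other gave a check on that choice. Of the peaks at least 2-fold higher at stage 8 in one, 98.7% and 97.4% were higher in the other. Of those at least 2-fold lower, 93.5% and 96.3% were lower. In the libraries that had no part in the choice, the rising peaks had a median first step of 0.46 and 0.30, a middle step of 0.82 and 0.84 and a last step of 0.39 and 0.25. The falling peaks had a first step of -0.43 and -0.45, a middle step of -0.38 and -0.43 and a last step of -0.54 and -0.58.

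The peak lists called in each library differed in number, strength and spacing. The stage 8 lists held 64765 and 62609 peaks, against 44351 and 44723 in the gastrula lists. They covered 38.9 and 35.1 Mb at stage 8, against 25.6 and 26.3 Mb at the gastrula. Median widths were 465 and 438 bp at stage 8, against 484 and 495 bp at the gastrula. The median distance to the nearest peak was 1236 and 1306 bp at stage 8, against 1702 and 1672 bp at the gastrula. The median fold enrichment over the local background was 2.36 and 2.53 at stage 8, against 3.20 and 3.16 at the gastrula. Enrichment above 5-fold was reached by 10.9% and 12.3% of the peaks at stage 8, against 23.5% and 23.5% at the gastrula, and enrichment below 2-fold was found in 30.4% and 20.3% at stage 8, against 7.56% and 9.10% at the gastrula. These measures separate the 2 stages without overlap, but the share of peaks over 1 kb does not, with 17.0% and 14.1% at stage 8, against 14.2% and 15.0% at the gastrula (exact permutation p = 1, two-sided), and with 2 lists against 2 the exact permutation test cannot go below p = 0.333 (two-sided). Median fold enrichment was 3.11 and 3.13 in the stage 4tt lists and 2.36 and 2.34 in the stage 5 lists. Enrichment below 2-fold was found in 8.32% and 8.01% at stage 4tt, and in 31.8% and 33.8% at stage 5. In enrichment the Oxford stage 4tt lists were thus near the gastrula lists, and the Novogene stage 5 lists near the stage 8 lists. The stage 8 libraries had more reads and came from the other site, and the part of depth and site in these differences was not tested.

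Lists of different stages overlapped less than lists of replicates. The Jaccard index, which divides the length that a pair of lists shares by the length that at least one covers, was 0.694 between the stage 8 lists and 0.712 between the gastrula lists, and between 0.371 and 0.375 across the stages. With the 44351 top peaks of each list it was between 0.388 and 0.396 across the stages. Of the peaks of the stage 8 lists, 49.9% to 51% overlapped a peak of a gastrula list, and of the peaks of the gastrula lists 72.0% to 75.1% overlapped one of a stage 8 list. Peaks that matched one to one showed little net difference in width between the stages, with a median log2 ratio of stage 8 to gastrula between -0.07 and 0.01 over the 4 pairs of lists, against 0.06 and -0.02 between replicates. Single matches varied more across the stages. For stage 8 replicate 1 against gastrula replicate 1, the quartiles of the ratio were -0.38 and 0.52. For stage 8 replicate 2 against gastrula replicate 2 they were -0.55 and 0.37. Between replicates they were -0.08 and 0.32 at stage 8, and -0.235 and 0.16 at the gastrula. The matched peaks had a median fold enrichment of 3.28 to 3.45 at stage 8, against 3.79 to 3.85 at the gastrula.

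Peaks called in both lists of stage 8 and in neither of the gastrula numbered 20625, which is 39.0% of the 52947 peaks of stage 8 replicate 1 found in both its lists. Peaks called in both gastrula lists and in neither of stage 8 numbered 7085 of 38158 (18.6%). The stage 8 peaks without a gastrula counterpart were narrower (median 412 bp, against 702 bp for those found in all 4 lists), weaker (median enrichment 2.13, against 3.45) and closer to the next peak (940 bp, against 1701 bp). The gastrula peaks without a stage 8 counterpart had a median of 312 bp, an enrichment of 2.72 and a distance of 1300 bp, against 652 bp, 3.95 and 1905 bp for the shared ones. An enrichment above 5-fold was reached by 0.407% of the peaks found at stage 8 alone and by 6.45% of those found at the gastrula alone. When the lists were first brought to the same size, 10252 peaks were found at stage 8 alone and 9279 at the gastrula alone.

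The lists of the stages in between show at which stages these peaks were called. The stage 5 lists, from Novogene, held 56126 and 55411 peaks, against 48004 and 45978 in the Oxford stage 4tt lists. Reads in consensus peaks numbered 37880598 and 43977052 at stage 5, against 27309773 and 25471604 at stage 4tt. Between these lists development, site and depth cannot be told apart. Of the 20625 stage 8 peaks, 10.1% were called in both stage 4tt lists and 51.6% in both stage 5 lists, and 46.5% in neither pair. Of the 7085 gastrula peaks, 52.9% were still called in both stage 4tt lists and 23.9% in both stage 5 lists, and 41.7% in neither pair. In the 64-cell embryo 8.34% of the stage 8 peaks and 32.9% of the gastrula peaks were called in both lists. The peaks found in all 4 lists were called in both stage 5 lists in 95.1% of cases.

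The lists and the table stem from the same reads, so their comparison is a description. Of the stage 8 peaks without a gastrula counterpart, 15468 overlapped a consensus peak, which had opened in 86.9% and closed in 1.80% of cases, with a median change of 1.42 on the log2 scale. Of the gastrula peaks without a stage 8 counterpart, 4179 overlapped one, which had closed in 76.4% and opened in 3.30%, with a median change of -1.11. Seen from the table, 57.2% of the opened peaks were called in both stage 8 lists and in neither gastrula list, and 25.1% were called in all 4, where the shares of all consensus peaks were 28.8% and 44.8%. Of the closed peaks, 21.2% were called in both gastrula lists and in neither stage 8 list, and 64.2% were called in all 4, where 7.24% and 44.8% of all consensus peaks, and 4.87% and 56.9% of the peaks not called, were. As called in these lists, opened peaks were mostly peaks that the gastrula lists lacked, and closed peaks were mostly still called at stage 8 at a lower level. They were called there less often than others, with 65.3% of closed peaks in both stage 8 lists. The share was 79.3% for all consensus peaks and 74.7% for peaks not called opened or closed. The libraries differed in depth. Opened peaks held a median of 124 and 126 reads in the gastrula libraries, and closed peaks 719 and 489 in the stage 8 libraries. With lists of the same size, 10252 peaks were found at stage 8 alone and 9279 at the gastrula alone. The part of depth in this contrast of opened and closed peaks was not tested.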

How the data were processed

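ATAC-seq libraries of Capitella teleta, 2 per stage, were analysed as deposited. The authors used cutadapt for trimming, NextGenMap for mapping, SAMtools against duplicates and deepTools to shift reads by the transposase offset, and called peaks per library with MACS2 2.2.7.1. They kept peaks reproducible within a stage, removed peaks in repeats and built consensus peaks with DiffBind, normalised with DESeq2. The study's annotation started from an Ensembl Metazoa assembly, while the build used for mapping these reads is not given in the sources used here. Starts, which count from 0 in the files, are printed counted from 1.

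The table holds normalised signal per consensus peak, deposited by the authors, which is not counts. In each library a value is reads times a step that varies smoothly with the strength of the peak. With that step, 99.3% of values between 51 and 200 reads, and 84.1% of all, came out whole within 0.1 reads. These recovered reads give the depth in peaks, and count tests on them are alternatives (edgeR 4.0.16 called 20904 opened and 13161 closed peaks, DESeq2 1.42.0 called 20154 and 12587). The deposited lists give the authors' fold enrichment (a ratio), −log10 p-value and −log10 q-value, a score and the summit offset, of which only the fold enrichment and the −log10 q-value were used.

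Values were tested as log2(value + 1) with limma 3.58.1 (trend, robust) in R 4.3.3, all 10 libraries in 1 fit with 5 residual degrees of freedom, and checked on simulated data. P-values were two-sided and adjusted over 46409 peaks, of which 390 had no signal. Such a change understates that of weak peaks. Strength is the mean value over 10 libraries and spacing the edge-to-edge distance. Lists overlapped from 1 bp. Named peaks are the 10 largest rises and falls among called peaks at or above the median strength whose libraries did not overlap, the 5 strongest, the 5 widest and the longest runs; CTEL_peak_9186, CTEL_peak_9194, CTEL_peak_35076 and CTEL_peak_35093 within these runs and the run on scaffold 4 were chosen after their values were seen. The comparison, the classes and the tests were chosen with earlier results of these data known. The libraries' replicate numbers did not pair them. The alternatives were other scalings, pseudocounts, filters, tests, list sizes and overlaps, and each library left out.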

Additional observations from a re-analysis of the deposited data

Results flagged for a closer look

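Signal outside the consensus table was found at both stages. Of the 27906 peaks of stage 8 replicate 1 that were called in all 4 lists of stage 8 and the gastrula, 6641 (23.8%) overlapped no consensus peak. Their median width was 569 bp, and their median fold enrichment of 3.59 was close to that of 3.45 of all peaks found in the 4 lists, so they were not the weak end of the lists. Of the peaks called at stage 8 only, 5157 overlapped no consensus peak, and of those called at the gastrula only 2906 did not. The change of these peaks between the stages was not measured here.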

How the results depend on the processing

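Opened and closed peaks stayed within 1.5 times their counts under every other scaling, pseudocount, filter and test, except for the requirement of a 2-fold change, which left 13081 opened and 5068 closed. Leaving out 1 library gave 18345 to 20292 opened and 10608 to 11914 closed peaks, and 7971 to 11463 opened and 7168 to 8706 closed by the within-site sum. The lone library of a stage is then assumed to vary like the others. With the replicate block, 20621 peaks had opened and 12729 had closed; the numbers did not pair the libraries (correlation of deviations between stage 8 and gastrula -0.03, between -0.06 and 0.12 over all pairs of stages). Steps within opened and closed peaks moved with the scaling. The first step of opened peaks had a median of 0.21 after quantile normalisation, and their middle step 0.48 under TMM scaling and 0.37 after quantile normalisation. In closed peaks the first, middle and last steps were -0.25, -0.49 and -0.38 under TMM scaling, and the first and middle ones -0.21 and -0.40 after quantile normalisation, so the middle step of closed peaks was the largest under TMM scaling and the last one with the deposited values. Peaks chosen by a 2-fold change in replicate number 1 and measured in the other had steps of 0.46, 0.82 and 0.39 (opened) and -0.43, -0.38 and -0.54 (closed). Chosen in number 2, the middle step was 0.84 (opened), and the closed steps were -0.45, -0.43 and -0.58. The excess of weaker over stronger peaks, 0.70, was 0.24 after quantile normalisation, 0.065 by the within-site sum, 0.078 with both and 0.58 for the middle step alone. The opened share of the widest minus the narrowest width group was -13.8, 45.2 and 25.1 percentage points in the weak, middle and strong classes, and the closed share 5.15, -32.3 and -22.9. Peaks with a neighbour under 1 kb minus those at 10 kb or more differed by 6.34, -5.12 and 7.33 points in opened and 1.54, 1.45 and -1.32 points in closed share. With lists of the same size, 10252 peaks were found at stage 8 alone and the mean Jaccard index across the stages was 0.392. The cause of these shifts was not tested.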
